A study of Mus musculus with 42 samples.

Results

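The clustered histone genes are the protein-coding genes whose symbols begin with Hist1h, Hist2h, Hist3h or Hist4h, and 68 of the 35275 genes listed in both count tables met that rule. They were followed by RNA-seq in the cerebellum of male C57BL/6 mice (C57/BL6NTac in the description of the design), with 5 libraries in each of 6 groups. Mice of the AL group fed ad libitum from 3 to 6 months of age, mice of the IF16 group had no food for 16 h of each day over the same 3 months, and mice of the EOD group had no food for 24 h on alternate days. The AL-R, IF16-R and EOD-R groups went through the same 3 months and then had free access to food for 2 further months, so that they were 8 months old when the tissue was taken. No group carried an engineered allele or a drug according to the labels. The labels number the libraries of a group as replicates and say no more on how they were obtained, so the p-values measure the spread between these libraries.

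Histones package DNA into nucleosomes: H3 and H4 form the core tetramer, dimers of H2A and H2B flank it, and the linker histone H1 binds where the DNA enters and leaves. Clustered genes make the bulk of these proteins in S phase, and most of their mRNAs end in a stem-loop and lack a poly(A) tail, which a library made by poly(A) selection largely leaves out. In non-dividing cells, such as most neurons of the adult cerebellum, several clustered genes are known to give polyadenylated mRNAs as well, and the variants H3.3, H2A.Z and H1.0 are made from genes outside the clusters whose mRNAs carry a poly(A) tail. The labels call the molecule total RNA, and how RNA was selected for the libraries is not given in the sources used here. Of 15 RNAs known to lack a poly(A) tail that were listed for comparison, the tables hold Rnu11 alone, with at most 2 counts in any library. How far RNA selection set the levels below was not tested.

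Of the 68 genes, 16 had enough counts to be tested in both tables, and 52 did not. The 16 were 2 of 6 genes for H1 (Hist1h1c and Hist1h1e), 2 of 19 for H2A (Hist3h2a and Hist1h2ac), 5 of 18 for H2B (Hist3h2ba, Hist1h2bc, Hist2h2be, Hist1h2be and Hist1h2bg), 2 of 12 for H3 (Hist2h3c2 and Hist1h3d) and 5 of 13 for H4 (Hist1h4h, Hist1h4i, Hist1h4k, Hist1h4j and Hist2h4). The filter stood between a mean of 10.5 counts per library in the least counted gene kept and 8 in the most counted gene left out. Of the 52 genes left out, 9 had no count in any of the 30 libraries, 21 never exceeded 3 counts in a library, and 8 had a count in every library. The 9 genes at 0 were Hist1h2aa, Hist1h2ah, Hist1h2ap, Hist2h2aa1, Hist2h2aa2 and Hist2h2ab for H2A, Hist1h2ba for H2B, and Hist2h3b and Hist2h3c1 for H3. Some of these have copies of near-identical sequence in the clusters, and the sources used here do not say how reads that match several genes were counted, so a 0 is not evidence that a gene is silent. The 52 genes together held 56 to 138 counts in a library.

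The genes lie in 4 clusters. Of the 55 Hist1 genes, 54 lie at 21715763 to 23934851 of chromosome 13 and Hist1h2al lies apart at 51202688 to 51203065 (positions as deposited, build mm10 per the submitters' processing notes), and they took 57.4% of the clustered histone counts. The 2 Hist3 genes, Hist3h2ba and Hist3h2a, lie within 58948920 to 58956830 of chromosome 11 and took 28.7%. The 10 Hist2 genes on chromosome 3 took 13.8%, and Hist4h4 on chromosome 6 took 0.0765%. All 68 genes together took 0.00972% to 0.0181% of the counts of a library (median 0.0112%). Library totals lay between 26799825 and 36167435 counts, of which 2715 to 5758 fell on clustered histone genes.

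By FPKM, which scales counts by gene length and library total, H2B genes were the most abundant of the 5 classes. Hist3h2ba had a mean of 40.6 FPKM (SD 9.86, n = 30 libraries, range 28.7 to 67.1) and Hist1h2bc had 32.3 FPKM (SD 5.46, range 24.8 to 46.0). The linker histone gene Hist1h1c followed with 18.6 FPKM (SD 3.63, range 13.3 to 29.9). Hist2h2be, also for H2B, had 5.01 FPKM (SD 0.626) and the H4 gene Hist1h4h 4.63 FPKM (SD 1.59), and their ranges overlapped. These 5 genes made up 79.9% of the summed FPKM of all 68 (SD 2.29 percentage points over 30 libraries). Next came Hist3h2a for H2A with 4.17 FPKM (SD 0.733), the H4 genes Hist1h4i with 3.72 (SD 0.929) and Hist1h4k with 2.94 (SD 0.953), and Hist2h3c2, the highest H3 gene, with 2.47 (SD 0.881). Each of these neighbours in the order overlapped the next over the libraries. The remaining 7 genes tested had means between 0.354 FPKM (Hist2h4) and 1.65 FPKM (Hist1h2be). The second linker histone gene tested, Hist1h1e, had 0.897 FPKM (SD 0.311), and its range did not reach that of Hist1h1c.

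**Figure D1:**
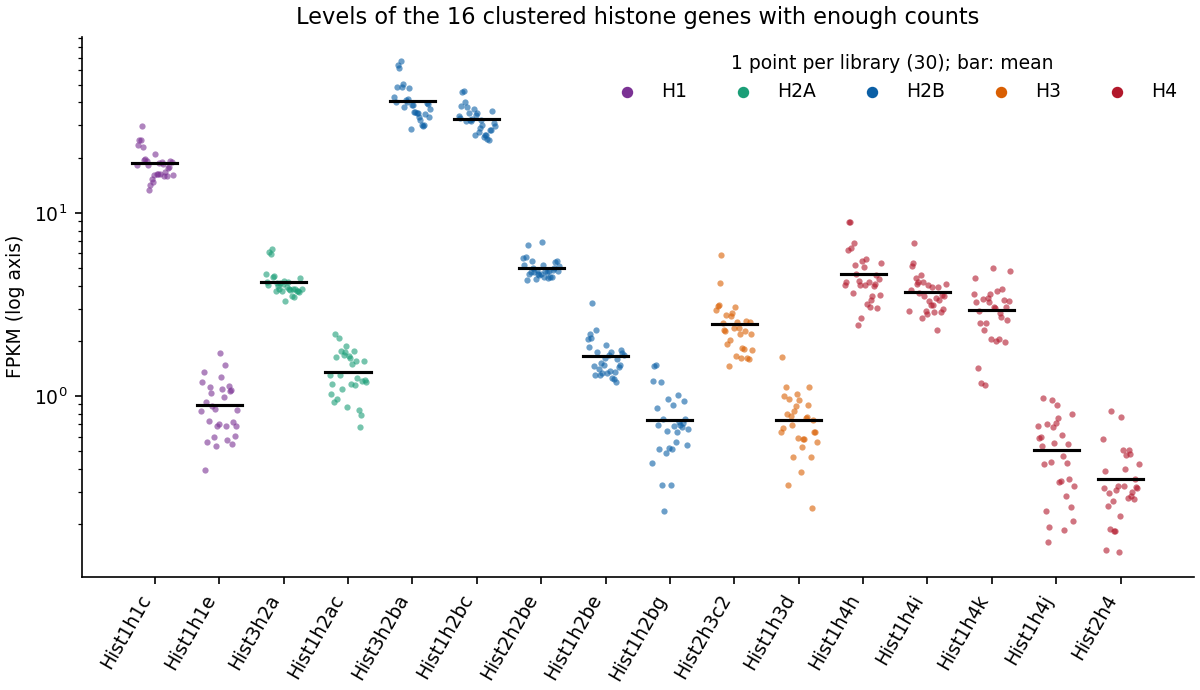
FPKM (log axis) of the 16 clustered histone genes with enough counts, ordered by class and mean, with 1 point for each of 30 libraries and a bar at the mean. Hist3h2ba, Hist1h2bc and Hist1h1c stand at 13.3 FPKM or above in every library, and the other 13 genes at 8.96 FPKM or below.

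Counts, which are not scaled by gene length, were uneven across the classes, although the core histones enter the nucleosome in equal number. H2B genes took 56.6% of the clustered histone counts and H1 genes 25.4%, against 8.74% for H2A, 6.39% for H4 and 2.79% for H3. The same order held for H2B and H1 in each group: the H2B share in the AL group was 55.5% ± 1.89, that of IF16 57.6% ± 0.723 and that of EOD 59.7% ± 2.67, and among refed mice it was 56.2% ± 0.836 for AL-R, 54.2% ± 0.88 for IF16-R and 56.9% ± 1.43 for EOD-R (SD, n = 5 each). The H1 share was 26.5% ± 2.28 for AL, 24.96% ± 1.23 for IF16 and 22.0% ± 1.68 for EOD, and after refeeding 25.6% ± 0.831 for AL-R, 27.6% ± 1.59 for IF16-R and 25.9% ± 1.30 for EOD-R (SD, n = 5 each). Summed FPKM, which is scaled by length, had a higher mean for H4 than for H2A in each group. In AL the means were 17.25 ± 3.64 for H4 and 8.56 ± 1.52 for H2A (SD, n = 5). There H2B had 101.2 ± 17.6, H1 25.7 ± 4.10 and H3 5.80 ± 1.76. The 15 listed variant genes outside the clusters had a summed FPKM of 632.5 ± 55.5, against 126.5 ± 22.8 for the 68 clustered genes (SD, n = 30 libraries). Among them, H3f3b, which encodes H3.3, had 206.9 ± 16.6 FPKM in AL, H2afz, which encodes H2A.Z, 157 ± 22.5, and H1f0, which encodes H1.0, 126.7 ± 10.8 (SD, n = 5).

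Many H2A and H2B genes sit head to head and share the stretch between their starts. As deposited, 12 such pairs lie with 236 to 306 bases between the starts. The H2B gene had the higher mean FPKM in 9 pairs, the H2A gene in 2, and in the pair of Hist1h2aa and Hist1h2ba both were at 0. Both genes had enough counts to be tested in 1 pair, the H2B gene alone in 2 and neither in 9. Some leads of H2B rest on very few counts over the 30 libraries. Hist1h2bk had 11 against 0 for Hist1h2ah, and Hist1h2br had 9 against 0 for Hist1h2ap, so their order says little. In the most abundant pair, Hist1h2bc had 32.3 FPKM and its partner Hist1h2ac 1.36 FPKM. Hist2h2be had 5.01 FPKM and its partner Hist2h2ac 0.0615 FPKM. Among the pairs with lower levels, Hist1h2bg had 0.736 FPKM beside 0.449 for Hist1h2ae, which lay just under the filter with 201 counts over the 30 libraries. The H2A gene led in the pair of Hist1h2ad (0.467 FPKM) with Hist1h2bf (0.127 FPKM) and in that of Hist1h2ai (0.207 FPKM) with Hist1h2bl (0.0210 FPKM).

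**Figure D2:**
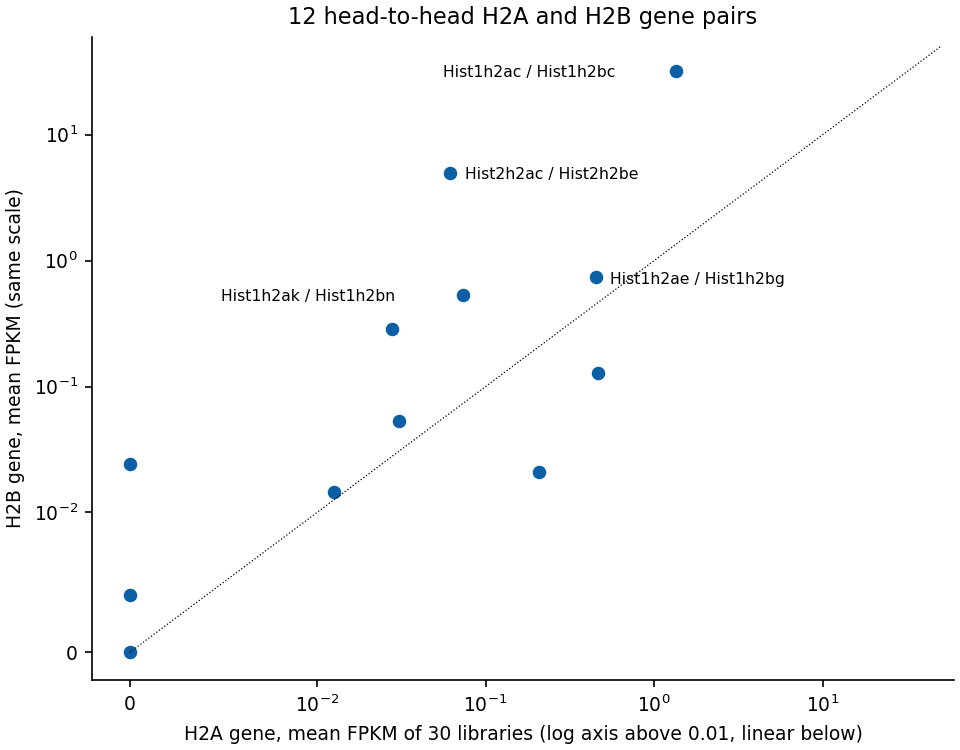
Mean FPKM over 30 libraries of the H2A gene (horizontal) and the H2B gene (vertical) of 12 head-to-head pairs, both axes logarithmic above 0.01 and linear below, with the line of equal levels dotted. In 9 pairs the H2B gene lies above the line, most of all in Hist1h2ac with Hist1h2bc and in Hist2h2ac with Hist2h2be. Neither gene had enough counts to be tested in 9 of the 12 pairs.

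The promoters of the genes that the results below turn on are shown because members that belong to the same class share short motifs there. RefSeq promoters of assembly GRCm38.p6 were found for 59 of the 68 genes and for 13 of the 16 tested, all but Hist1h2bc, Hist2h2be and Hist2h4. The 250 bases before each RefSeq start were searched on both strands for CCAAT, for the TATA box TATAAA and for AAACACA, an element known from promoters of linker histone genes. TATAAA and AAACACA can share letters where they adjoin. The 150 bases before the start are printed for 6 genes on the strand of the gene, with matches of either strand in capitals: Hist1h1c at chr13:23738657-23738806 (plus strand), Hist1h1e at chr13:23622559-23622708 (minus), Hist3h2a at chr11:58954535-58954684 (plus), Hist3h2ba at chr11:58948761-58948910 (plus), Hist2h3c2 at chr3:96239128-96239277 (minus) and Hist1h4i at chr13:22041363-22041512 (minus).
Hist1h1c: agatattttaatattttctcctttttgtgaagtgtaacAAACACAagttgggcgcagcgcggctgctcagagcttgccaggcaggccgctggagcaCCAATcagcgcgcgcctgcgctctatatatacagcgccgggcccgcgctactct
Hist1h1e: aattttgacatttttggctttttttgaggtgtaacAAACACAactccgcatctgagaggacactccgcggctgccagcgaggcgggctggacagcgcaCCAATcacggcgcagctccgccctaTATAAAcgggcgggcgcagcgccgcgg
Hist3h2a: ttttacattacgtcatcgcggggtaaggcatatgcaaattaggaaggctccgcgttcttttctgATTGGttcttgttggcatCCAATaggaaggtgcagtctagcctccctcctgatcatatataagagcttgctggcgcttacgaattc
Hist3h2ba: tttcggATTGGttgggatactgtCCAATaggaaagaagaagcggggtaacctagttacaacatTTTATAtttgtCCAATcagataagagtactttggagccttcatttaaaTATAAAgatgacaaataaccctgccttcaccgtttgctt
Hist2h3c2: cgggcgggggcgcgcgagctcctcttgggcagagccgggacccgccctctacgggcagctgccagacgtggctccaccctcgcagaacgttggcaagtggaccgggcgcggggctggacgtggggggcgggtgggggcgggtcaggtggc
Hist1h4i: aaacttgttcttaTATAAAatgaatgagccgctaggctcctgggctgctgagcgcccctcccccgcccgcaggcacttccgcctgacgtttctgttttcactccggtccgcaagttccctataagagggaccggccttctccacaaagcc

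AAACACA was found in 5 of 6 H1 promoters, in 2 of 15 for H2A, in 2 of 16 for H2B and in none of 10 for H3 and 12 for H4, against 6.25% of the 32851 promoters of the RefSeq table. In Hist1h1c and Hist1h1e it began 112 and 115 bases before the start, and CCAAT began 54 and 52 bases before it. CCAAT was present in all 6 H1, all 15 H2A and all 16 H2B promoters, in 8 of 10 for H3 and in 3 of 12 for H4, against 33.8% of all promoters. CCAAT occurred in 61.5% of the promoters of the genes tested and in 87% of those of the genes left out. The tested genes without it were Hist1h4h, Hist1h4i, Hist1h4k and Hist1h4j for H4 and Hist2h3c2 for H3, so these shares also reflect class. TATAAA was found in 49.2% of the 59 promoters and in 12.4% of all. Hist2h3c2 held none of the 3 motifs in the stretch shown, and Hist1h4i held TATAAA alone, which began 137 bases before its start.

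Libraries differed in ways that bear on short genes. The length gradient of a library, the slope of log2 CPM over the log2 length of genes relative to the other libraries of its table, was lowest in AL replicate 4 (-0.158), IF16 replicate 1 (-0.114) and AL replicate 5 (-0.106) and highest in EOD replicate 4 (0.139). A negative slope means that short genes stood relatively high in that library. After refeeding the gradients were narrower, from -0.0261 to 0.0416, and each IF16-R library lay above each AL-R library. The 16 histone genes tested are mostly short, with a median length of 742 bases against 2963 for the 16877 genes of the joint fit. Fold changes below are therefore set beside the median of all genes under 1000 bases. Of the 16, only 10 are under 1000 bases themselves. Longer are Hist1h1c (1560), Hist1h2be (2433), Hist2h2be (2620), Hist3h2a (2146), Hist2h4 (1630) and Hist2h3c2 (1020), for which that median is not a reference of like length. The marker list of choroid plexus also varied: the mean log2 CPM of its 10 genes ran from 0.616 to 4.88 in AL, 0.382 to 4.97 in IF16, 3.53 to 4.89 in EOD, and 0.0340 to 4.59 over the refed groups. The 7 granule cell and 5 Purkinje cell markers were detected in every group, with mean log2 CPM from 9.14 to 9.40 and from 9.29 to 9.67, so the defining markers of cerebellum were present.

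**Figure D3:**
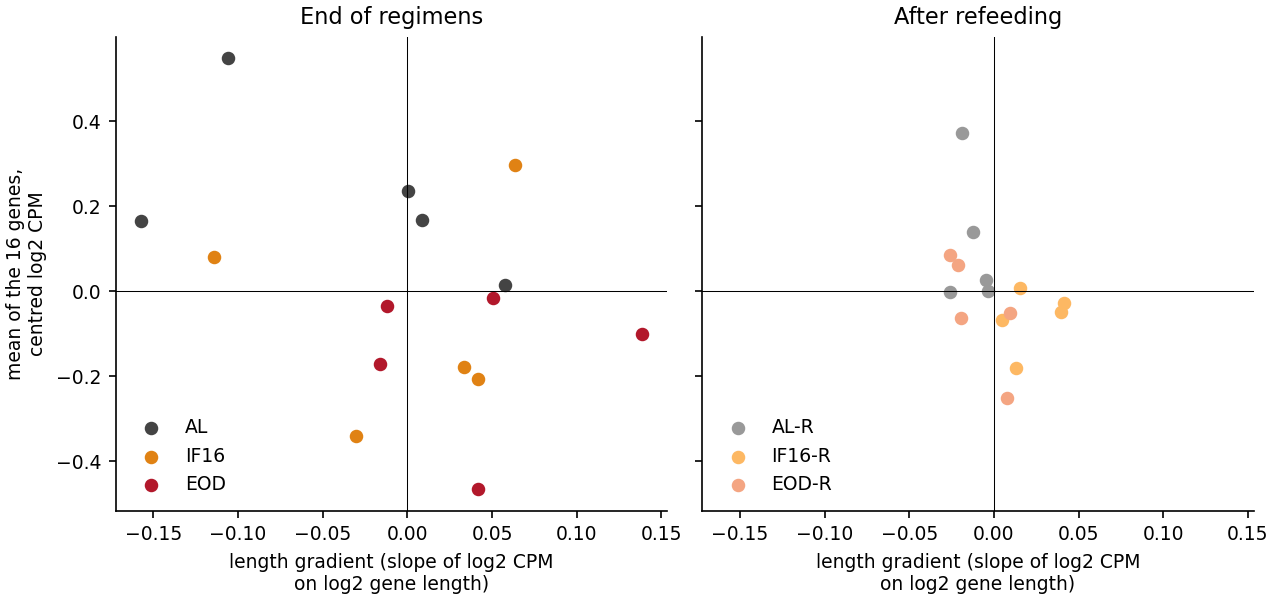
Mean of the 16 genes tested (log2 CPM, each gene centred on its mean over the table) against the length gradient, with 1 point per library, at the end of the regimens (left) and after refeeding (right). The 5 AL libraries lie at 0.0145 or above and the 5 EOD libraries at -0.0151 or below.

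In alternate-day fasting against ad libitum feeding, Hist1h1c was the clustered histone gene that passed the test, and it fell. Hist1h1c (ENSMUSG00000036181, at 23738808 to 23740367 of chromosome 13, a gene for a linker histone) had 28.02, 36.1, 38.3, 40.3 and 47.5 CPM in the AL libraries and 20.6, 22.2, 23.7, 23.9 and 25.2 CPM in the EOD libraries. Each EOD library lay below each AL library. The share of all genes that separate in this way was not counted, here or in the comparisons below, so a lack of overlap is given as description only. The mean fell from 38.0 ± 7.05 to 23.1 ± 1.79 CPM (SD, n = 5 each), a fold of 0.608 (log2 fold change of -0.72 with SE 0.111, edgeR quasi-likelihood adjusted p = 0.0233). It was the only one of the 16 genes called, against 0.0664% of the 16577 genes tested. In bulk tissue, fewer cells of a type and less of an RNA per cell cannot be told apart.

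A further 9 genes were lower in EOD at an unadjusted p under 0.05 without passing the adjustment (edgeR adjusted p from 0.209 to 0.341), so that 10 of 16 met that looser limit, all lower, against 14.4% of all genes tested. The median log2 fold change of the 16 was -0.42, against -0.02 for all genes and -0.15 for the 1475 genes under 1000 bases, and 15 of the 16 were negative. Hist1h2be, which encodes H2B, had 4.86, 4.45, 5.20, 5.21 and 7.97 CPM in AL and 3.13, 3.71, 3.21, 3.74 and 3.97 CPM in EOD. These groups did not overlap either (log2 fold change of -0.64 with SE 0.168, edgeR adjusted p = 0.209), and AL replicate 5 stood apart from the other AL libraries. The deposited model of Hist1h2be spans 37383 bases of chromosome 13 with an exon length of 2433, so its counts can come from outside the short histone reading frame.

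The H3 gene Hist2h3c2 had 2.95, 3.12, 3.17, 4.37 and 6.14 CPM in AL and 1.47, 2.07, 2.78, 3.02 and 2.43 CPM in EOD (log2 fold change of -0.73 with SE 0.213, edgeR adjusted p = 0.247). Its groups overlapped in EOD replicate 4 alone. The H4 genes Hist1h4h and Hist1h4i had log2 fold changes of -0.77 (SE 0.272) and -0.57 (SE 0.199), with overlapping libraries. The most abundant gene, Hist3h2ba, had 25.6, 24.4, 29.4, 40.5 and 38.6 CPM in AL and 24.3, 25.8, 29.3, 18.4 and 24.0 in EOD (log2 fold change of -0.38 with SE 0.171, edgeR adjusted p = 0.338). Its 2 highest AL values belong to replicates 4 and 5, the libraries with the lowest gradients of that group. Its neighbour Hist3h2a, whose model starts at the same base as Trim17 on the same strand and may share reads with it, had a log2 fold change of -0.33 (SE 0.150). Hist1h2bc, Hist2h2be and the sparsely counted Hist1h2bg (3 to 24 counts in these 10 libraries) made up the rest. Hist1h2ac alone had a positive value (0.16, SE 0.285), with 14 to 33 counts in a library.

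With the length gradient as a covariate, Hist1h1c had a log2 fold change of -0.57 (SE 0.0916, edgeR adjusted p = 0.0237) and Hist1h2be -0.62 (SE 0.186), while Hist3h2ba moved to -0.08 (SE 0.0957), Hist3h2a to -0.10 (SE 0.109) and Hist1h2bc to -0.10 (SE 0.0765). The count of genes at an unadjusted p under 0.05 was then 5 of 16. The share over all genes at that limit was not computed for the altered fits, so such counts cannot be set beside it. Without AL replicates 4 and 5, IF16 replicate 1 and EOD replicate 4 together, no histone gene was called (2 of 16720 over all genes) and 6 of the 16 met the unadjusted limit. Hist1h1c then had a log2 fold change of -0.58 (SE 0.0975, edgeR adjusted p = 0.148). The call of Hist1h1c was also lost without any of AL replicates 2, 3 and 5 or EOD replicates 1, 2, 3 and 4 (edgeR adjusted p from 0.0517 to 0.0928 in those fits), whereas its log2 fold change stayed between -0.81 and -0.63 in the 10 fits that left out a library.

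**Figure D4:**
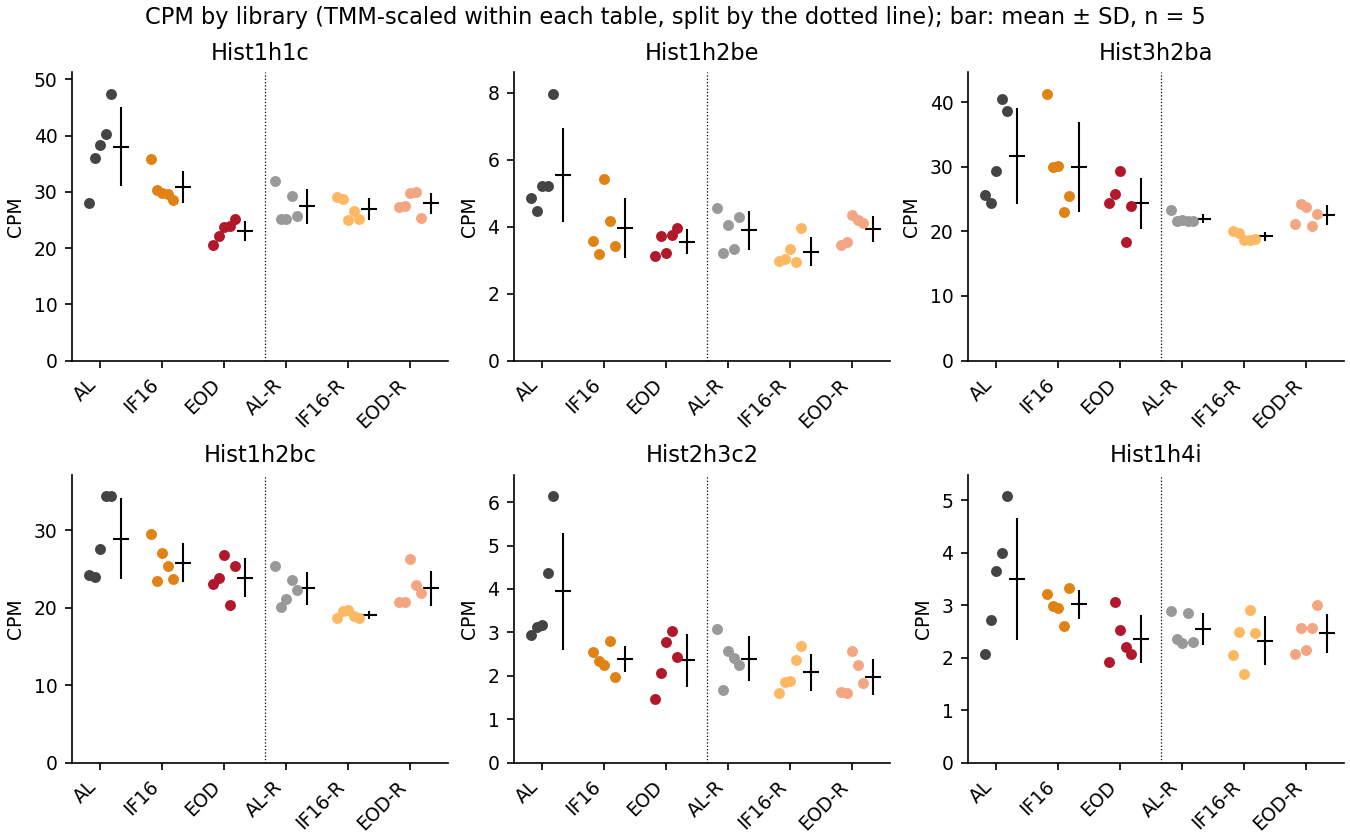
CPM of 6 clustered histone genes in the 30 libraries, 5 points per group, with the mean and SD as bars to their right; the dotted line divides the 2 tables, which were scaled separately. Among these 6 genes, only for Hist1h1c and Hist1h2be do all 5 EOD points lie below all 5 AL points. The share of all genes that separate in this way was not counted.

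With daily fasting, no clustered histone gene was called in IF16 against AL, against 0.0483% of all genes tested. At an unadjusted p under 0.05, 4 of the 16 were lower (Hist1h1c, Hist1h2be, Hist1h4j and Hist2h3c2), against 9.92% of all genes. Hist2h3c2 had the smallest p: its IF16 libraries had 2.55, 2.34, 2.25, 2.79 and 1.98 CPM, each below each AL library (log2 fold change of -0.72 with SE 0.213, edgeR adjusted p = 0.307). Hist1h1c had 35.8, 30.4, 29.8, 29.7 and 28.6 CPM in IF16, between the other groups, and overlapped AL (log2 fold change of -0.30 with SE 0.111, edgeR adjusted p = 0.415). The median log2 fold change of the 16 was -0.25, against -0.05 for genes under 1000 bases. Since this comparison and the preceding one share the AL libraries, their values are not independent.

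Between the 2 regimens no gene of any kind was called (0% of 16577 by edgeR, with 3.62% of all genes at an unadjusted p under 0.05; DESeq2 called 1). Hist1h1c had the smallest p among the 16, and each EOD library lay below each IF16 library (log2 fold change of EOD over IF16 -0.41, SE 0.111, edgeR adjusted p = 0.977). The H4 gene Hist1h4j was the other of 2 at an unadjusted p under 0.05, in the opposite direction (log2 fold change of 0.97 with SE 0.349), on 4 to 22 counts in a library. The median of the 16 was -0.18, against -0.09 for genes under 1000 bases.

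After 2 months of refeeding no clustered histone gene was called in any of the 3 comparisons, and the values of Hist1h1c overlapped. It had 32.0, 25.1, 25.2, 29.2 and 25.6 CPM in AL-R, 29.2, 28.8, 25.1, 26.5 and 25.2 CPM in IF16-R, and 27.4, 27.5, 29.7, 29.9 and 25.4 CPM in EOD-R. The 3 groups overlapped over most of their range, with log2 fold changes of -0.02 (SE 0.0712) in IF16-R and 0.03 (SE 0.0711) in EOD-R against AL-R.

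In IF16-R against AL-R, 4 of 16 genes were lower at an unadjusted p under 0.05 (Hist3h2ba, Hist1h2bc, Hist1h2be and Hist1h1e), against 9.58% of all genes, while 0.17% of all genes were called. Hist3h2ba had 23.2, 21.5, 21.8, 21.6 and 21.6 CPM in AL-R and 20.05, 19.8, 18.7, 18.7 and 18.9 CPM in IF16-R. The groups did not overlap, and the difference was small (log2 fold change of -0.19 with SE 0.0511, edgeR adjusted p = 0.192). Hist1h2bc did not overlap either, at 20.1 to 25.5 CPM in AL-R and 18.7 to 19.8 in IF16-R (log2 fold change of -0.24 with SE 0.0695, edgeR adjusted p = 0.275). The median log2 fold change of the 16 was -0.20, against -0.085 for genes under 1000 bases. AL-R and IF16-R also differ in length gradient without overlap. With the gradient as a covariate 2 of the 16 met the unadjusted limit (share over all genes not computed), and Hist3h2ba moved to -0.07 (SE 0.0654, edgeR adjusted p = 0.9993).

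EOD-R against AL-R had 2 of 16 genes lower at an unadjusted p under 0.05, against 8.5% of all genes, with 0.0426% called. Hist1h1e, for a linker histone, had 1.26, 0.940, 0.815, 0.744 and 1.11 CPM in AL-R and 0.407, 0.537, 0.450, 0.521 and 0.631 CPM in EOD-R. The groups did not overlap (log2 fold change of -0.93 with SE 0.226, edgeR adjusted p = 0.173), and these values rest on 12 to 41 counts per library. The other gene was Hist2h4 (log2 fold change of -0.54 with SE 0.248). The median of the 16 was -0.06, against 0.006 for genes under 1000 bases. In EOD-R against IF16-R, 3 of 16 were higher in EOD-R at an unadjusted p under 0.05, namely Hist3h2ba, Hist1h2bc and Hist1h2be, against 9.75% of all genes, with 0.0182% called. Hist3h2ba had 21.2, 24.2, 23.8, 20.8 and 22.7 CPM in EOD-R, each above each IF16-R library (log2 fold change of 0.23 with SE 0.0512, edgeR adjusted p = 0.146). With the gradient as a covariate it had 0.11 (SE 0.0628, edgeR adjusted p = 0.9999), and the median of the 16 turned from 0.08 to -0.06. Without the covariate, genes under 1000 bases had a median of 0.09, near that of the 16. The 3 refeeding comparisons draw on the same libraries.

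Whether a regimen's difference from its controls changed after refeeding was tested as an interaction in a fit of all 30 libraries. For alternate-day fasting, Hist1h1c was called, with a log2 difference of 0.74 between the contrasts (SE 0.135, edgeR adjusted p = 0.0494), while 0.0119% of all genes were. The contrast stood at -0.72 at the end of the regimens and at 0.03 after refeeding. Scaled in the joint fit, mean CPM was 38.1 in AL and 23.15 in EOD, then 27.38 in AL-R and 27.87 in EOD-R, so the control groups differed as well. This test uses the same AL libraries as the call of EOD against AL. The regimen and refed groups also differ in age and length gradient, which cannot be told apart from refeeding here. In all, 6 of the 16 genes had an unadjusted p under 0.05, each with a positive difference (Hist1h1c, Hist1h2be, Hist3h2ba, Hist1h2bg, Hist1h4i and Hist1h4h), against 10.3% of all genes, and the median of the 16 was 0.31 against 0.15 for the 1574 genes under 1000 bases. The call was kept in 4 of 20 fits that left out a library, in which the log2 difference lay between 0.65 and 0.83. It was lost without the 4 libraries of extreme gradient (0.60, SE 0.122, edgeR adjusted p = 0.0831) and kept with the gradient as a covariate (0.60, SE 0.114, edgeR adjusted p = 0.0464). For daily fasting no histone gene was called, against 0.0474% of all genes, and 3 of 16 had an unadjusted p under 0.05 (Hist1h1c, Hist1h2bg and Hist1h3d), against 7.21% of all genes. The smallest p was that of the H3 gene Hist1h3d (log2 difference 0.93, SE 0.436, edgeR adjusted p = 0.679), on 6 to 32 counts in a library. The median of the 16 was 0.07 there, against -0.04 for genes under 1000 bases.

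More clustered histone genes were called between the 2 ad libitum groups than in any comparison of a regimen with its controls. In AL-R against AL, 8 of the 16 genes were called, all lower in AL-R, against 23.9% of all genes called and 12.4% called lower. They were Hist1h1c for H1, Hist3h2a for H2A, Hist3h2ba, Hist1h2bc, Hist1h2be and Hist1h2bg for H2B, Hist2h3c2 for H3 and Hist1h4i for H4. A fit of the AL and AL-R libraries alone called 0 of the 16, and 28 of 16313 genes in all, so both counts depend on the joint fit. Scaled in the joint fit, Hist3h2ba had 25.7, 24.4, 29.7, 40.3 and 38.4 CPM in AL and 23.3, 21.5, 21.8, 21.5 and 21.6 CPM in AL-R. Its groups did not overlap (log2 fold change of -0.53 with SE 0.130, edgeR adjusted p = 0.00882). Hist1h1c went from 38.1 ± 6.90 to 27.4 ± 3.09 CPM (SD, n = 5 each), with an overlap (log2 fold change of -0.48 with SE 0.0947, edgeR adjusted p = 0.0034). The other 6 had log2 fold changes from -0.88 (Hist1h2bg) to -0.37 (Hist1h2bc and Hist3h2a), and Hist1h2bg and Hist1h4i lay at the limit (edgeR adjusted p = 0.04988 and 0.04997). The gene of H2B with the least change was Hist2h2be (log2 fold change -0.09), and Hist1h1e and Hist2h4 had positive values that did not pass the test (0.47, SE 0.238, and 0.54, SE 0.338).

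These groups differ in age, in the table they were deposited in and in the length gradient, which cannot be told apart by group. The joint gradient was -0.187 to 0.0160 in AL and 0.0133 to 0.0331 in AL-R. Markers of cell types were called too, beside 23.9% of all genes. In AL-R 3 of 5 red blood cell markers were called higher (median log2 fold change of the list 1.18). Lower were 3 of 5 oligodendrocyte markers (-0.28) and 2 of 4 of its precursor (-0.12). Of 7 granule cell markers 2 were called higher and 1 lower, and of 5 Purkinje cell markers 2 higher. Of 5 microglia and 4 endothelium markers 1 each was called lower, and of 6 Bergmann glia and astrocyte markers none. The 10 choroid plexus markers had a median of -1.44 with none called. The part of the red blood cell and oligodendrocyte markers in the result was not tested. The median of the 16 was -0.42 against -0.17 for genes under 1000 bases. With the gradient as a covariate the median was -0.14 and no histone gene was called (223 of 16877 over all genes). At an unadjusted p under 0.05 there were 5 of the 16, and the share over all genes was not computed. Hist1h2be then had a log2 fold change of -0.51 (SE 0.172), Hist1h1c -0.29 (SE 0.0894) and Hist3h2ba -0.15 (SE 0.0791). The count of histone genes called was 3 without AL replicate 4 (830 of 17008 over all genes), 2 without AL replicate 5 (1250 of 17034) and 4 without AL-R replicate 2 (2111 of 17009). It was 2 with the choroid plexus mean as a covariate (1182 of 16877 over all genes) and 1, Hist1h1c, without the 4 libraries of extreme gradient (405 of 17110). The calls over all genes thus fell in these fits too.

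**Figure D5:**
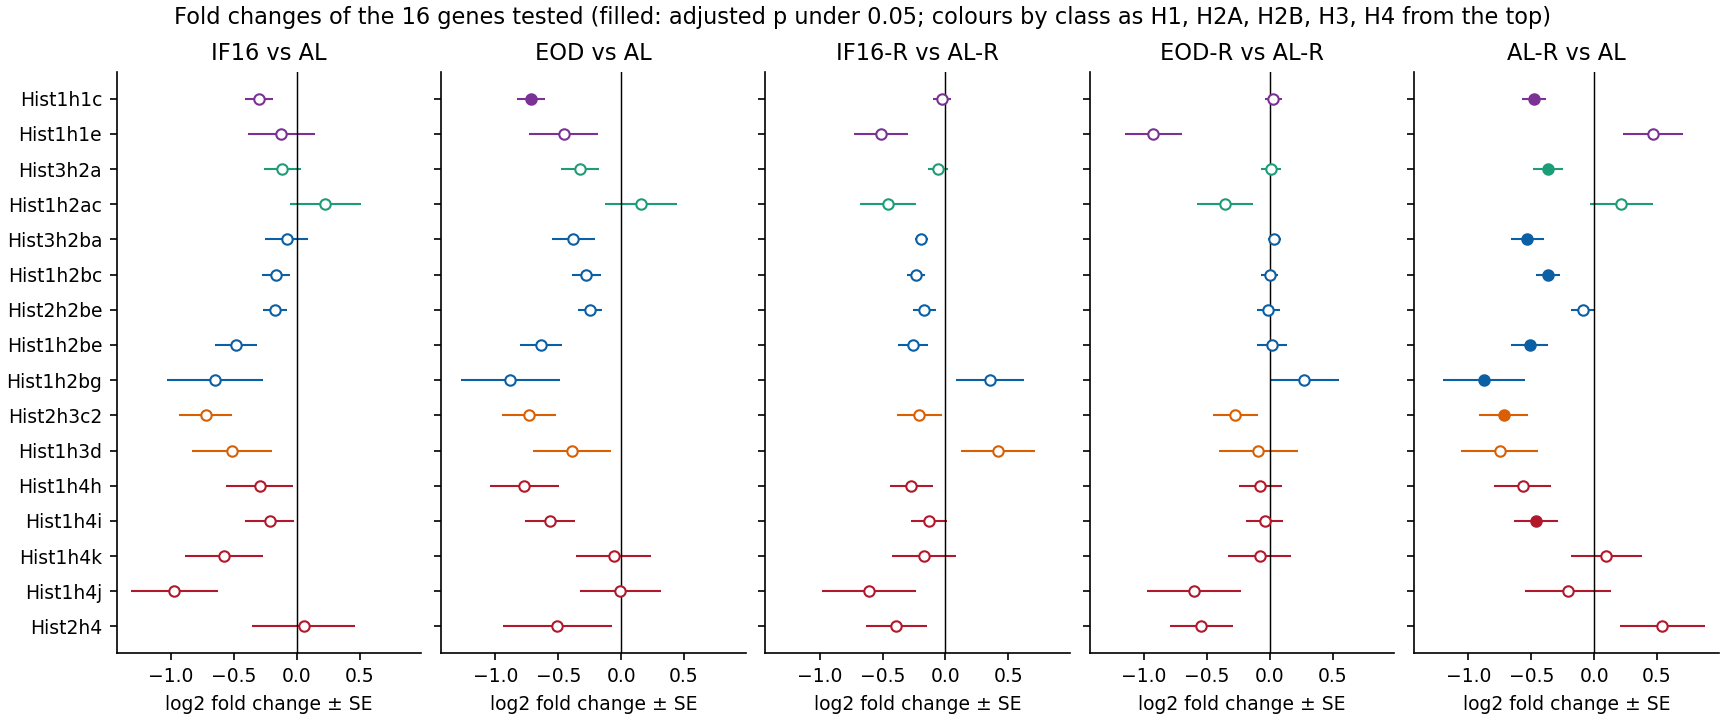
Log2 fold change and standard error (horizontal) of the 16 genes tested, in 5 comparisons, coloured by class and filled where the edgeR adjusted p was under 0.05. Hist1h1c is filled in EOD against AL, and 8 genes are filled in AL-R against AL.

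Genes that make, process or handle histone mRNAs were described beside the clusters from lists drawn up with earlier results known. Of the 11 variant genes tested, none was called in any fasting or refeeding comparison or interaction by edgeR. In each of these 8 tests 0 to 4 had an unadjusted p under 0.05, beside 3.62% to 14.4% of all genes. The 4 were in EOD against AL, where the share was 14.4%. H1f0, for the linker histone H1.0, had the smallest p in EOD against AL and went from 289.9 ± 26.0 to 217.3 ± 12.2 CPM (SD, n = 5 each; log2 fold change of -0.42 with SE 0.113, edgeR adjusted p = 0.224), in the same direction as Hist1h1c. The median of the 11 in that comparison was -0.21. In AL-R against AL, 3 of 11 were called, beside 23.9% of all genes, and the 3 were lower and encode H2A variants: H2afv (-0.38, SE 0.0852), H2afj (-0.40, SE 0.128) and H2afx (-0.29, SE 0.101). Of 28 genes for 3′ processing, transcription and decay of histone mRNA, none was called in those 8 tests. At the unadjusted limit there were 0 to 7, with the 7 in EOD against AL beside 14.4% of all genes. In AL-R against AL 4 were called higher and 6 lower, again beside 23.9% of all genes. Npat, the coactivator of histone gene transcription, was among the higher (0.45, SE 0.104), as was Zcchc11 (0.38, SE 0.0910), which adds uridine to RNA ends. Lsm10, a protein of the U7 particle that cuts histone mRNA, was among the lower (-0.49, SE 0.109). Slbp, which binds the stem-loop, was not called.

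Of 21 histone chaperones tested, 4 were called higher in AL-R than in AL (Atrx, Supt16, Ubn1 and Ubn2) and 1 lower (Nap1l4), a share near the 23.9% of all genes. In the other 8 tests none was called and 0 to 4 met the unadjusted limit, beside 3.62% to 14.4% of all genes. Ubn1, a subunit of the HIRA complex, had the smallest p of the list in EOD against AL (log2 fold change of 0.37 with SE 0.0910, edgeR adjusted p = 0.203). No S phase or proliferation gene of 22 tested in each table or 23 in the joint fit was called in any comparison by edgeR. At the unadjusted limit there were 0 to 3, with the 3 in AL-R against AL, where no share over all genes was computed at that limit. Their 24 genes had a summed FPKM of 83.3 ± 2.81 (SD, n = 30 libraries), and their median log2 fold change in EOD against AL was -0.06. The smallest p there was that of the cyclin gene Ccna2 (log2 fold change of -0.43 with SE 0.194, edgeR adjusted p = 0.339). Whether this list and the clustered genes differed from each other was not tested.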

How the data were processed

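RNA-seq of cerebellum gave 30 libraries in 6 groups, assigned by their labels; 12 H3K9me3 chromatin and input samples were not analysed here. The authors deposited read counts per gene in 2 tables of 15 libraries (end of regimens, after refeeding), and FPKM values that equal those counts over gene length and library total (largest relative difference 5e-12), with the gene lengths, another deposited column. STAR 2.5, HTSeq 0.6.1, DESeq2 and build mm10 are named in the submitters' processing notes; read strand, multi-mapping and RNA selection are not given in the sources used here. The 60 pairs of libraries within groups differed by 4.24 to 135.1 chi-square per degree of freedom over genes averaging 50 counts or more. This is more than counting error alone gives, and all libraries were kept as replicates. Such a spread does not show that each library came from a separate mouse, which the labels do not state.

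Counts were tested with edgeR 4.0.16 (R 4.3.3): TMM, filterByExpr by group, quasi-likelihood test, Benjamini-Hochberg over all genes tested, called at an adjusted p under 0.05. Each table had its own fit; a joint fit of 30 libraries gave the interactions and AL-R against AL. SE is the log2 fold change over the root of F. CPM are TMM-scaled within a table. The script was tested on simulated data. Alternatives were DESeq2 1.42.0, other size factors, no filter, fewer groups, a replicate block, 2 covariates and libraries left out. The genes, lists and named-gene rule (genes called in any comparison, the 3 highest by FPKM per class, the smallest p per comparison) were chosen with earlier results of these data known. Of 40 gene and group combinations averaging over 100 counts, 8 had a CV between libraries no larger than counting error alone gives (2.8% to 9.98%), as had 8 of the 56 with fewer counts.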

Additional observations from a re-analysis of the deposited data

Results flagged for a closer look

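In 11 of the 96 groups of 5 libraries examined (the 16 genes tested, 6 groups each), the highest library stood apart from the other 4 by a gap above the 95% limit of Dixon's test, where chance gives about 5%. Hist1h1c had 35.81 CPM in IF16 replicate 1, and Hist3h2a had 13.67 CPM in the same library, which also had a length gradient of -0.114. Hist1h2ac had 1.056 CPM, Hist1h2be 7.969 CPM and Hist1h4j 0.7681 CPM in AL replicate 5, whose gradient was -0.106. Hist2h2be had 17.85 CPM and Hist3h2ba 23.24 CPM in AL-R replicate 1, a library with 4243 clustered histone counts against 3243 to 3784 in the other AL-R libraries. Hist1h2bg had 0.4872 CPM in IF16-R replicate 2, on 17 counts. Hist2h4 had 1.317 CPM in IF16 replicate 3, on 45 counts against 10 to 16 in the other IF16 libraries, and Hist1h4j had 0.6102 CPM in EOD-R replicate 3, on 19 counts against 5 to 8. Hist3h2a had 9.578 CPM in EOD-R replicate 4. The difference of EOD from its controls in Hist1h1c was not the same before and after refeeding, with a log2 interaction of 0.7425 (SE 0.135, edgeR adjusted p = 0.0494).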

How the results depend on the processing

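No clustered histone gene changed sign under any alternative run for the genes and comparisons with a main call or the smallest p. In EOD against AL, where 1 gene was called, DESeq2 called 2 (Hist1h1c and Hist1h2be); a fit of only the groups compared called 0, as did the fit without the 4 libraries of extreme gradient; leaving out a library gave 0 to 1. The replicate block called 0 there. Same-numbered libraries had correlated deviations from -0.534 to 0.322 at the end of the regimens (3 of 15 over 0.1) and from -0.0545 to 0.427 after refeeding (14 of 15 positive, 8 over 0.1), where 2 of 15 libraries correlated best with their own number in both other groups; the labels do not say that a number is shared. Over all genes the block moved the count in EOD against AL from 11 to 4 and the refeeding counts from 28 to 95, from 7 to 45 and from 3 to 40, with 0 clustered histone genes called after refeeding. In the interaction for EOD, with 1 called, 0 were called with only the groups compared and without the 4 libraries, and 0 to 1 when a library was left out. In AL-R against AL, with 8 called, 0 were called with only the groups compared or with the length gradient as covariate. The count was 2 with the choroid plexus mean as covariate and 1 without the 4 libraries, and leaving out a library gave 2 to 10. Over all genes, the main fit called 4030 of 16877 there, the fit of only the groups compared 28 of 16313, and the fit with the gradient 223 of 16877. The all-gene count was 1182 of 16877 with the choroid plexus mean, 405 of 17110 without the 4 libraries, and 830 to 6173 when a library was left out. Where fewer groups or libraries are fitted, fewer samples set the spread; for the other settings the cause was not tested. The 5 genes highest by CPM took 84.65% of clustered histone CPM without scaling by length, and the 5 highest by FPKM took 79.91% of FPKM. These sets differ, with Hist3h2a in the first in place of Hist1h4h in the second. Of the medians of the 16 genes, 176 of 179 alternative values moved by less than the spread. The spread was the SD of the mean of the 16 genes between libraries of the reference group, for example 0.197 in AL and 0.160 in AL-R. It is wide beside some medians, so this count says little about small shifts or their sign. In EOD-R against AL-R the median was -0.06, and leaving out a library gave -0.11 to 0.04. DESeq2 called 0 clustered histone genes in the 6 tests where edgeR called 0, but its filtering left only 13, 9 and 1 of them with an adjusted p in IF16-R against AL-R, EOD-R against AL-R and EOD-R against IF16-R, so those counts say little. Over all genes, DESeq2 called 94 in IF16 against AL and 130 in EOD against AL, where edgeR called 8 and 11. Sparse counts limit Hist1h1e, Hist1h2ac, Hist1h2bg, Hist1h3d, Hist1h4j and Hist2h4 most.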
